A study of Arabidopsis thaliana with 2 samples.

Results

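A set of 10 Arabidopsis thaliana genes that are known markers of darkness, carbon starvation and low sugar was followed in the stem of hdt1 mutant and wild-type plants. The members were picked by locus identifier, as ASN1 (also called DIN6), SEN1, DIN10, DIN2, MIOX2, AT3G15450, AKINBETA1, BGAL4, EXL2 and bZIP1, from a table of 33602 loci. All 10 are in the table, 9 had a mean of at least 1 FPKM (fragments per kilobase of gene, scaled to the total of the library) over both libraries, and bZIP1 was listed at 0 in both. RNA of the main stem was sequenced from plants of an hdt1 mutant and from wild type, both collected 35 days after flowering and grown at 20 °C with 16 h of light and 8 h of dark. There was 1 library per genotype. The sources used here do not give the mutant allele, the number of plants in a library or the hour of harvest, and they name no dark or sugar treatment of either group.

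Plants read their carbon supply in part through the protein kinase SnRK1, a complex of a catalytic alpha subunit with beta and gamma subunits that becomes active when sugars run low. Its activity is followed by a change in transcripts: genes that release carbon and nitrogen from stored or structural material go up, and genes of growth go down. Some of the genes that go up were first found as DIN genes, transcripts that accumulate in leaves kept in the dark and that sugar represses. The group S1 bZIP factors, bZIP1 among them, take part in this response together with group C partners.

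Because each genotype has 1 library, the genotypes could not be tested against each other and no p-value is given. A fold is the ratio of the FPKM values, and the range in brackets after it is an exact (Clopper-Pearson) 95% interval on the reads behind them, which covers counting error in these libraries and not variation between plants. Log2 ratios, and the counts of genes past 2-fold, were computed after adding 1 FPKM to either value, which understates differences of low genes. The libraries hold 23070249 counted fragments for hdt1 and 21728500 for wild type. HDT1 (AT3G44750), which encodes a plant-specific histone deacetylase and is the gene mutated in hdt1, was at 5.19 FPKM in hdt1 and 52.6 FPKM in wild type, 10.2-fold lower (8.42 to 12.3).

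The 10 genes did not share a direction. AT3G15450, DIN10 and BGAL4 were at least 2-fold higher in hdt1, ASN1 was at least 2-fold lower, and 5 of the 9 genes compared lay between these limits. Among all 17811 genes that reached the same mean level, 2.32% were 2-fold higher, 0.741% were 2-fold lower and 3.06% were past the limit either way. The median log2 ratio of the 9 genes was 0.44, against -0.03 over all genes compared, with 6 ratios above 0 (46% of all genes compared) and 3 below. The members were chosen with earlier results of these data known, so these contrasts with all genes are not independent of the data. For 6 of the 9 the counting interval was above 1, for 2 it was below 1, and for EXL2 it included 1. Over all genes compared, 24.4% had an interval above 1 and 28.7% below 1, so that such intervals alone are common at this depth.

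**Figure D1:**
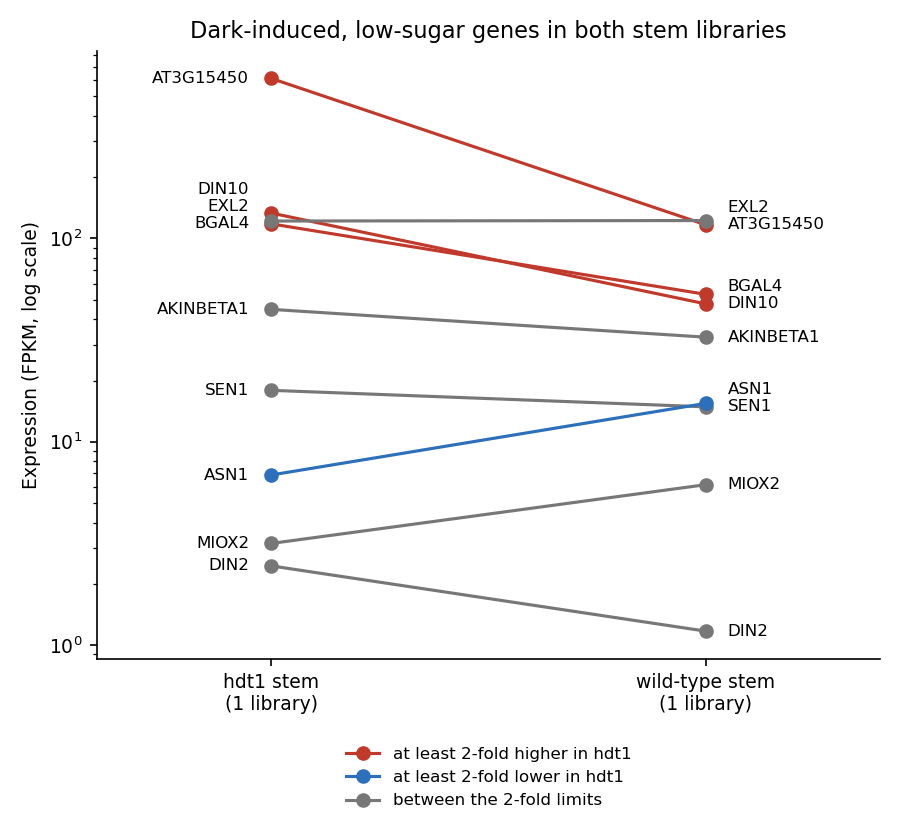
FPKM (log scale) of the 9 genes above 0 in the hdt1 library, on the left, and the wild-type library, on the right; a line joins the 2 values of a gene, and bZIP1, listed at 0 in both, is not drawn. AT3G15450 stands alone at the top of the hdt1 side at 613 FPKM and is level with EXL2 on the wild-type side, and ASN1 and MIOX2 are the genes whose lines run clearly upward to wild type.

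Levels of the genes differed widely within a library. In hdt1 they ran, per length, from 2.45 FPKM for DIN2 to 613 FPKM for AT3G15450, and in wild type from 1.17 FPKM for DIN2 to 122 FPKM for EXL2. Their order differed between the libraries. In hdt1 the order was AT3G15450, DIN10, EXL2, BGAL4, AKINBETA1, SEN1, ASN1, MIOX2 and DIN2. In wild type it was EXL2, AT3G15450, BGAL4, DIN10, AKINBETA1, ASN1, SEN1, MIOX2 and DIN2. Neighbours in these orders whose counting intervals of the level (exact Poisson, 95%) overlap are EXL2 with BGAL4 and MIOX2 with DIN2 in hdt1, and EXL2 with AT3G15450 and ASN1 with SEN1 in wild type. The summed level of all 10 genes was 1061 FPKM in hdt1 and 410 FPKM in wild type. AT3G15450 alone made up 57.8% of that sum in hdt1 and 28.4% in wild type, and the sums without it were 448 FPKM in hdt1 and 293 FPKM in wild type.

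**Figure D2:**
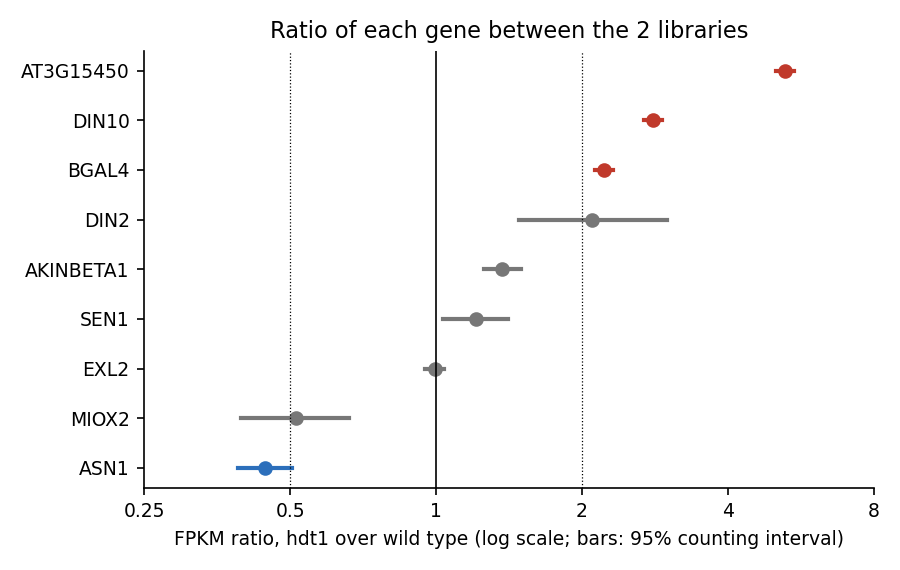
FPKM ratio of hdt1 over wild type (log axis) for the 9 genes above 0, with bars for the 95% counting interval, a solid line at equal levels and dotted lines at 2-fold. The bars of AT3G15450, DIN10 and BGAL4 lie wholly above 2, that of DIN2 runs from 1.48 to 3.0 on fewer reads, and that of EXL2 crosses 1.

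**Figure D3:**
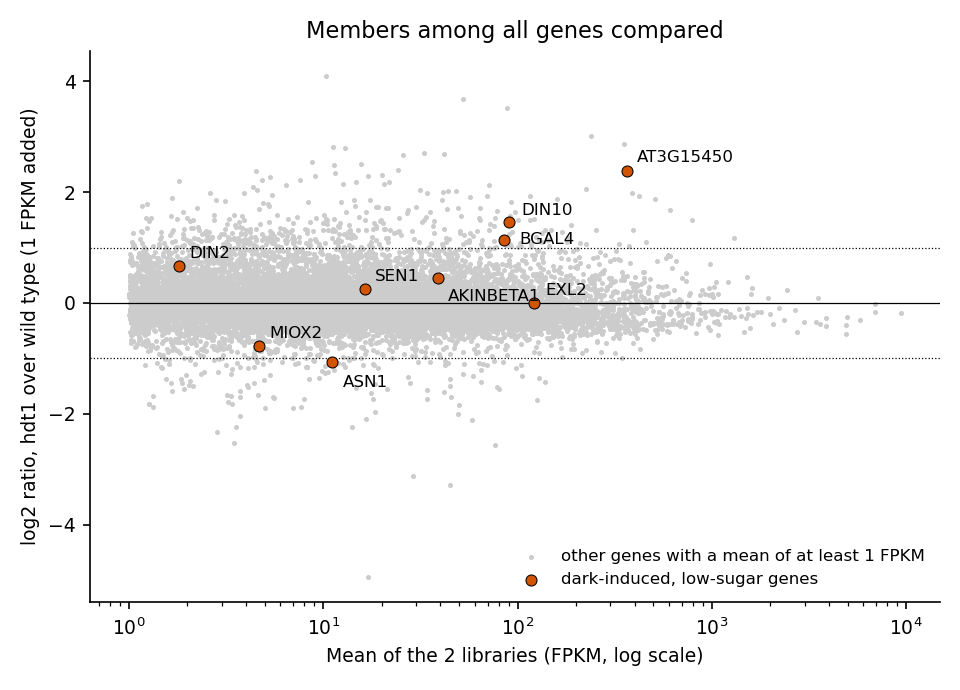
Log2 ratio of hdt1 over wild type with 1 FPKM added against the mean FPKM of both libraries (log axis) for all 17811 genes compared (grey) and the 9 members (orange); dotted lines mark 2-fold. AT3G15450 lies above nearly all genes of similar level at 2.38. ASN1 sits on the lower line at -1.07, and MIOX2 is also on the low side at -0.78. The other members lie within the grey cloud or at its upper edge.

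Markers of tissues and states that could differ between these bulk stem libraries stood as follows. The 7 markers of xylem and fibre walls, which define a maturing stem, were present in both libraries. Their log2 ratios were above 0 in 7 of 7 cases, 4 were at least 2-fold higher, and their sum was 189 FPKM in hdt1 and 67.1 FPKM in wild type. The 4 were the cellulose synthases of secondary walls CESA4, CESA7 and CESA8, 2.65-fold, 3.59-fold and 2.55-fold higher, and the laccase LAC4, 3.36-fold higher. Adding 0.1 FPKM in place of 1 put 6 of the 7 past the limit, as did centring the ratios on the median of genes of at least 10 FPKM. Of 6 photosynthesis genes 5 had a log2 ratio below 0 and none was past 2-fold, with a sum of 9189 FPKM in hdt1 and 10350 FPKM in wild type. LHB1B1, a light-harvesting protein, was at 22.0 FPKM in hdt1 and 44.4 FPKM in wild type, 2.02-fold lower (1.81 to 2.25), and was past the limit with 0.1 FPKM added but not with 1. Of 7 senescence genes 6 entered and none was past 2-fold, with 3 ratios above 0 and 3 below and a sum of 746 FPKM in hdt1 and 677 FPKM in wild type. SAG12 was 1.88-fold lower (1.75 to 2.02), NAP 1.8-fold higher (1.56 to 2.07) and SAG20 1.33-fold higher (1.29 to 1.38), and ORE1 had an interval from 0.925 to 1.46. The 10 clock genes, whose transcripts cycle with the hour, were all inside the limits, with 7 log2 ratios above 0 and 3 below, a median of 0.05 and a sum of 558 FPKM in hdt1 and 503 FPKM in wild type. Among them PRR5 was 1.54-fold higher (1.44 to 1.63), TOC1 1.42-fold (1.36 to 1.49), CCA1 1.26-fold (1.13 to 1.41) and GI 1.16-fold (1.12 to 1.21). Flower markers summed to 2.37 FPKM in hdt1 and 2.03 FPKM in wild type, and of 5 seed markers CRU3, CRA1, SESA3 and OLEO2 were at 0 in both libraries. The part of tissue make-up, senescence and hour of harvest in the ratios of the dark-induced genes was not tested. In bulk stem RNA fewer cells of a type and less RNA per cell cannot be told apart. The 7 reference genes were inside the limits, with a median of -0.08. Their counting interval was above 1 for 1 gene, below 1 for 3 and included 1 for 3. UBQ10 was 1.3-fold higher (1.28 to 1.32) and YLS8 was 1.19-fold lower (1.14 to 1.24).

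Promoters are shown for the 4 genes past 2-fold, so that the 3 that were higher can be read beside the 1 that was lower. Each window runs from 250 bases before to 50 bases after the annotated gene start, in the direction of the gene, from the RefSeq annotation of TAIR10.1. AT3G15450 and ASN1 are on chromosome 3, on the plus and the minus strand of the assembly, and DIN10 and BGAL4 are on the plus strand of chromosome 5. Coordinates are left out because no source used here names the build behind the FPKM values. Capitals mark ACGT, the core that bZIP factors bind, and GATAA on either strand (TTATC where it is reversed), the core of the I-box of light-regulated and sugar-regulated promoters.
AT3G15450: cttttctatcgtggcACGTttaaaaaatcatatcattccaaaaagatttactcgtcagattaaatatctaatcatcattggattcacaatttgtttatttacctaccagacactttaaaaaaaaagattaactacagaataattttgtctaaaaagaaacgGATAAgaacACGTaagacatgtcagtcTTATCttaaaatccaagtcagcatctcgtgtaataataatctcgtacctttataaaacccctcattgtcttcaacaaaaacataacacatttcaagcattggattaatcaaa
DIN10: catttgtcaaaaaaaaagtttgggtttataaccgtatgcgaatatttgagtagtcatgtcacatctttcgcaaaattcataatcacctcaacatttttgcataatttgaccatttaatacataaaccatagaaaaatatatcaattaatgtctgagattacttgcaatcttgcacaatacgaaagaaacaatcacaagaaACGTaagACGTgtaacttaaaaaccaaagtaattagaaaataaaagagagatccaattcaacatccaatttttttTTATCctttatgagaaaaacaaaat
BGAL4: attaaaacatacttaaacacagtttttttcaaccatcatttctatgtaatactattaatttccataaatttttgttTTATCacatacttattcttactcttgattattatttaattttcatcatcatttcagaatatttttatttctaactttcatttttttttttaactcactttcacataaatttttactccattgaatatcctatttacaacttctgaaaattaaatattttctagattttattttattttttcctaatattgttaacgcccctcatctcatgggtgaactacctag
ASN1: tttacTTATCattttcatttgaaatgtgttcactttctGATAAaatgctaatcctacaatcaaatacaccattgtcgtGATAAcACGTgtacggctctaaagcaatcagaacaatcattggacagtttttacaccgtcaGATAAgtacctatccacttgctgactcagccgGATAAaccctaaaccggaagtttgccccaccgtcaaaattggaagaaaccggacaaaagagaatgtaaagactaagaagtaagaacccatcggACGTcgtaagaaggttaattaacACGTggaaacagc
ACGT was found 2 times in the window of AT3G15450, 2 times in that of DIN10, 3 times in that of ASN1 and in none of the other 7 genes, BGAL4 included. It occurs in 49.9% of the 27443 windows of nuclear protein-coding genes. Of the longer forms with this core, the G-box CACGTG and the C-box GACGTC were found in ASN1 alone, in 7.68% and 2.88% of all windows. GATAA was found in 10 of the 10 windows and in 60.8% of all windows. TATCCA, a motif of sugar-starvation promoters known from rice amylase genes, was found in the windows of AKINBETA1, ASN1, SEN1 and bZIP1, and in 16.1% of all windows. In AKINBETA1, SEN1 and bZIP1 it shares bases with a GATAA match. The core of the clock's evening element, AATATCT, was found in AT3G15450 and EXL2 and in 11.5% of all windows. ACTCAT, which group S1 bZIP factors bind in the promoter of a proline dehydrogenase gene, was found in none of the 10 and in 14.7% of all windows. All motifs were searched on both strands, and CACGTG and GACGTC overlap ACGT by construction. A match is a run of letters and not a known binding site.

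The regulators come first. AKINBETA1 (AT5G21170), a beta subunit of SnRK1, was at 44.8 FPKM in hdt1 and 32.7 FPKM in wild type, 1.37-fold higher (1.26 to 1.49), inside the 2-fold limits. Of 7 other subunits of the kinase listed, 6 entered the comparison and none was past 2-fold. Their log2 ratios ran from -0.28 to 0.10, with a median of 0.00. The counting interval was above 1 for 1 of them, below 1 for 2 and included 1 for 3. AKINBETA2, the other beta subunit of the same type, was at 44.1 FPKM in hdt1 and 53.8 FPKM in wild type, 1.22-fold lower (1.14 to 1.31). The catalytic subunit KIN10 was at 36.2 FPKM in hdt1 and 34.1 FPKM in wild type, with an interval from 0.99 to 1.14, and KIN11, the other main catalytic subunit, was 1.1-fold lower (1.01 to 1.2). SNF4, a gamma-type subunit, had a log2 ratio of 0.10 with an interval of the fold from 0.982 to 1.19. SNRK1.3, named after its value was seen, was listed at 0 in both libraries.

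bZIP1 (AT5G49450), a group S1 transcription factor and a marker of SnRK1 activity, was listed at 0 FPKM in hdt1 and in wild type. So were the 4 other group S1 genes, bZIP2, bZIP11, bZIP44 and bZIP53. Each of these 5 loci has in the table a companion identifier within 2 of its own number that the RefSeq annotation lacks (AT5G49448 for bZIP1, AT2G18162 for bZIP2, AT4G34588 for bZIP11, AT1G75388 for bZIP44 and AT3G62422 for bZIP53), and all 5 companions were listed at 0 in both libraries too. The table has 245 such pairs of a protein-coding locus and an identifier that RefSeq lacks. The coding locus was listed at 0 in both libraries in 101 of them, or 41.2% of pairs, where some loci are in several pairs. Over all 26712 coding loci in the table the share was 17.6%. In 99 of the 101 the companion was at 0 as well, but most companions were at 0 also where the coding locus was not. Transcripts of the group S1 genes are known to carry conserved upstream reading frames. The cause of the 5 zeros was not tested, and no level of bZIP1 can be given. The 4 group C partners all had a level. bZIP63 was at 34.1 FPKM in hdt1 and 23.8 FPKM in wild type, 1.43-fold higher (1.29 to 1.59), and bZIP9 was at 26.4 FPKM in hdt1 and 19.4 FPKM in wild type, 1.36-fold higher (1.2 to 1.54). bZIP10 had an interval from 0.927 to 1.07 and bZIP25 was at 122 FPKM in hdt1 and 128 FPKM in wild type.

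ASN1 (AT3G47340), also named DIN6, makes asparagine from aspartate and glutamine, a way to store nitrogen when carbon is short. It was at 6.86 FPKM in hdt1, from 363 reads, and at 15.4 FPKM in wild type, from 770 reads. It was 2.25-fold lower (1.99 to 2.56), rank 117 from the lowest log2 ratio of the genes compared, and its log2 ratio was -1.07, close to the limit of -1. With 5 FPKM added instead of 1 the log2 ratio was -0.79 and no longer past 2-fold. The other asparagine synthetase genes were inside the limits. ASN2 was at 4.52 FPKM in hdt1 and 4.62 FPKM in wild type, with an interval from 0.805 to 1.19, and ASN3 was at 17.2 FPKM in hdt1 and 14.9 FPKM in wild type, 1.16-fold higher (1.04 to 1.28). ASN1 thus made up 24.0% of the summed FPKM of the 3 genes in hdt1 and 44.2% in wild type. Its nearest transcript outside itself, ASN3, matched it at 70.5% over 1255 bases.

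Among the enzymes of sugars and the wall, DIN10 (AT5G20250), a raffinose synthase family protein, had the largest ratio. It was at 133 FPKM in hdt1, from 8593 reads, and at 47.6 FPKM in wild type, from 2890 reads, 2.8-fold higher (2.68 to 2.92) and rank 124 from the highest of the genes compared. Of its 4 listed relatives only 2 entered. SIP2, which acts on raffinose, was at 44.4 FPKM in hdt1 and 28.6 FPKM in wild type, 1.55-fold higher (1.46 to 1.65), and SIP1 had an interval from 0.835 to 1.39. DIN10 made up 73.6% of the summed FPKM of these 5 genes in hdt1 and 59.8% in wild type.

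BGAL4 (AT5G56870), a beta-galactosidase of the cell wall, was at 118 FPKM in hdt1, from 6809 reads, and at 53.1 FPKM in wild type, from 2885 reads. It was 2.22-fold higher (2.13 to 2.32), with a log2 ratio of 1.14 that was 0.99, and so just inside 2-fold, once the trend of the ratios with gene length was removed. A gene of unknown product on the opposite strand, AT5G56880, shares 909 of its 946 exon bases with BGAL4, to which RefSeq gives 3812. The length recovered behind the FPKM of BGAL4 was 2502 bases, so how much of the shared stretch was counted is not known. AT5G56880 was at 13.2 FPKM in hdt1 and 2.03 FPKM in wild type, from at least 62 and 9 reads, 6.49-fold higher (3.21 to 14.9). No source used here says if strand was used in counting, and reads of the shared stretch from the 2 genes cannot be told apart if it was not. Of 7 relatives that entered, none was past 2-fold with 1 FPKM added (1 was with 0.1 FPKM added), and the median was 0.36. BGAL1 was at 231 FPKM in hdt1 and 121 FPKM in wild type, 1.9-fold higher (1.85 to 1.95). BGAL3 was at 9.85 FPKM in hdt1 and 4.81 FPKM in wild type, 2.05-fold higher (1.8 to 2.34), and BGAL5 was 1.94-fold higher (1.47 to 2.59) at 2.71 FPKM in hdt1 and 1.39 FPKM in wild type. BGAL9 was 1.3-fold higher (1.2 to 1.42). BGAL2, the closest in sequence to BGAL4 at 79.6% over 2182 bases and named after its value was seen, was at 7.87 FPKM in hdt1 and 9.87 FPKM in wild type.

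DIN2 (AT3G60140), a beta-glucosidase also called BGLU30, was the lowest of the genes above 0. It was at 2.45 FPKM in hdt1, from 109 reads, and at 1.17 FPKM in wild type, from 49 reads. It was 2.1-fold higher (1.48 to 3.0), but the log2 ratio with 1 FPKM added was 0.67, inside the limits, and with 0.1 FPKM added it was 1.01. Of its relatives BGLU28, BGLU29 and BGLU32 were listed at 0 in both libraries, and BGLU31 had 1 read in hdt1 and 1 in wild type. MIOX2 (AT2G19800), an oxygenase that turns myo-inositol into glucuronate, was at 3.16 FPKM in hdt1, from 96 reads, and at 6.15 FPKM in wild type, from 176 reads. It was 1.95-fold lower (1.51 to 2.52), with a log2 ratio of -0.78, inside the limits. MIOX1 was at 10.8 FPKM in hdt1 and 8.29 FPKM in wild type, 1.3-fold higher (1.1 to 1.54), while MIOX4 and MIOX5 were under 1 FPKM in either library. MIOX2 made up 21.3% of the summed FPKM of the 4 genes in hdt1 and 40.3% in wild type.

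AT3G15450, annotated as an aluminum induced protein with YGL and LRDR motifs, had the largest difference of the set. It was at 613 FPKM in hdt1, from 13588 reads, and at 117 FPKM in wild type, from 2436 reads. It was 5.25-fold higher (5.03 to 5.49), rank 15 from the highest log2 ratio among the 17811 genes compared. Its level stood at percentile 99.3 of those genes in hdt1 and at percentile 92.8 in wild type. The 4 relatives that carry the same annotated motifs all had a log2 ratio above 0 and inside the limits, with a median of 0.31. AT4G27450, the closest in sequence at 69.1% over 576 bases, was at 173 FPKM in hdt1 and 95.1 FPKM in wild type, 1.82-fold higher (1.73 to 1.91). AT5G43830 was 1.28-fold higher (1.2 to 1.36), AILP1 was at 1763 FPKM in hdt1 and 1457 FPKM in wild type, 1.21-fold higher (1.19 to 1.23), and AT3G22850 had an interval from 0.984 to 1.2. A gene on the opposite strand, AT3G15460, shares 41 annotated exon bases with AT3G15450 and was at 0.463 FPKM in hdt1 and 0.416 FPKM in wild type.

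SEN1 (AT4G35770), a rhodanese-type protein known as DIN1 and as a marker of leaf senescence, was at 17.9 FPKM in hdt1, from 379 reads, and at 14.8 FPKM in wild type, from 296 reads. The ratio of 1.21 (1.03 to 1.41) was inside the limits. Among its relatives STR16 was at 308 FPKM in hdt1 and 448 FPKM in wild type, 1.45-fold lower (1.4 to 1.51), and STR14 was 1.12-fold higher (1.04 to 1.21). EXL2 (AT5G64260), an EXORDIUM-like protein of the apoplast, was at 122 FPKM in either library, from 3900 reads in hdt1 and 3693 in wild type. Its interval ran from 0.951 to 1.04, and the sign of its log2 ratio changed with the scaling. Its relatives went both ways and none was past 2-fold with 1 FPKM added. EXL3 was 1.81-fold higher (1.67 to 1.96), and EXL7 was 2.06-fold higher (1.28 to 3.42) at 2.12 FPKM in hdt1 and 1.03 FPKM in wild type. EXL1 was 1.63-fold lower (1.44 to 1.85) and EXL5 1.22-fold lower (1.13 to 1.33).

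**Figure D4:**
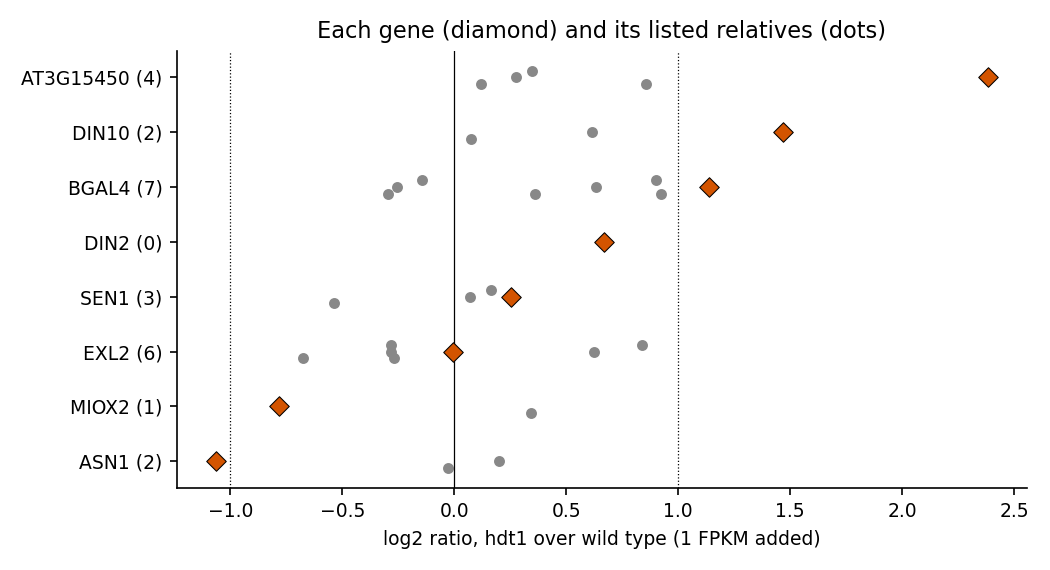
Log2 ratio of hdt1 over wild type with 1 FPKM added for each member (diamond) and its listed relatives with a mean of at least 1 FPKM (dots, their number in brackets); dotted lines mark 2-fold. None of the 25 relatives lies past 2-fold, and the diamonds of AT3G15450, DIN10, BGAL4 and SEN1 lie to the right of all their relatives while those of ASN1 and MIOX2 lie to the left.

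Over all families 37 relatives were listed and 25 entered, with a median log2 ratio of 0.16 and none past 2-fold. The relatives were listed by family name and not by their response to darkness or sugar.

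Other genes of the low-sugar response were read from lists of genes grouped by their known role. The remaining DIN genes showed no difference of this size. Of 4 listed, 3 entered, none was past 2-fold and the median was -0.19. DIN4, a subunit of the branched-chain keto acid dehydrogenase, was at 14.3 FPKM in hdt1 and 19.4 FPKM in wild type, 1.35-fold lower (1.19 to 1.53). BCE2, also called DIN3 and part of the same complex, had an interval from 0.984 to 1.23, and DIN9 was at 0.941 FPKM in hdt1 and 1.21 FPKM in wild type. DIN11 had 0 reads in hdt1 and 1 in wild type.

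Genes of amino acid breakdown, which feed respiration when sugars are short, were mostly level. None of the 12 genes was past 2-fold, and ratios were above 0 for 6 and below 0 for 6, with a median of 0.02. ERD5, the proline dehydrogenase that group S1 bZIP factors are known to activate, was at 66.1 FPKM in hdt1 and 33.2 FPKM in wild type, 1.99-fold higher (1.87 to 2.13), just short of the limit with a log2 ratio of 0.97. With ratios centred on the median of genes of at least 10 FPKM, 1 of the 12 was past 2-fold. The proline dehydrogenase homologue PDH2 (AT5G38710) was 1.27-fold higher (1.2 to 1.34). IVD, of leucine breakdown, was 1.15-fold lower (1.02 to 1.3), and the glutamate dehydrogenase GDH1 was 1.12-fold higher (1.06 to 1.19).

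Of 10 other genes known to be repressed by sugar, 9 entered, 4 were at least 2-fold higher and none was 2-fold lower, with a median of 0.37. This list was drawn up with earlier results on TPS8 and KMD1 in view. TPS8 and TPS11, class II trehalose phosphate synthases, had log2 ratios of 3.51 and 1.34, and the kelch-repeat F-box gene KMD1 had 3.01. STP1, a monosaccharide carrier of the plasma membrane, was at 304 FPKM in hdt1 and 145 FPKM in wild type, 2.09-fold higher (1.98 to 2.21). Among those not past the limit, the dormancy gene DRM2, singled out for its level, was at 3322 FPKM in hdt1 and 4430 FPKM in wild type, 1.33-fold lower (1.32 to 1.35). Genes that sugar induces were within 2-fold in 5 of the 6 cases that entered, with a median of -0.08. The beta-amylase BAM5 was at 27.9 FPKM in hdt1 and 60.2 FPKM in wild type, 2.15-fold lower (2.01 to 2.31). DFR, of anthocyanin synthesis, was 1.38-fold higher (1.28 to 1.5), TPS5 1.22-fold higher (1.11 to 1.35) and the anthocyanin regulator PAP1 1.1-fold lower (1.04 to 1.15). F3H, named after its value was seen, was listed at 0 in both libraries.

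**Figure D5:**
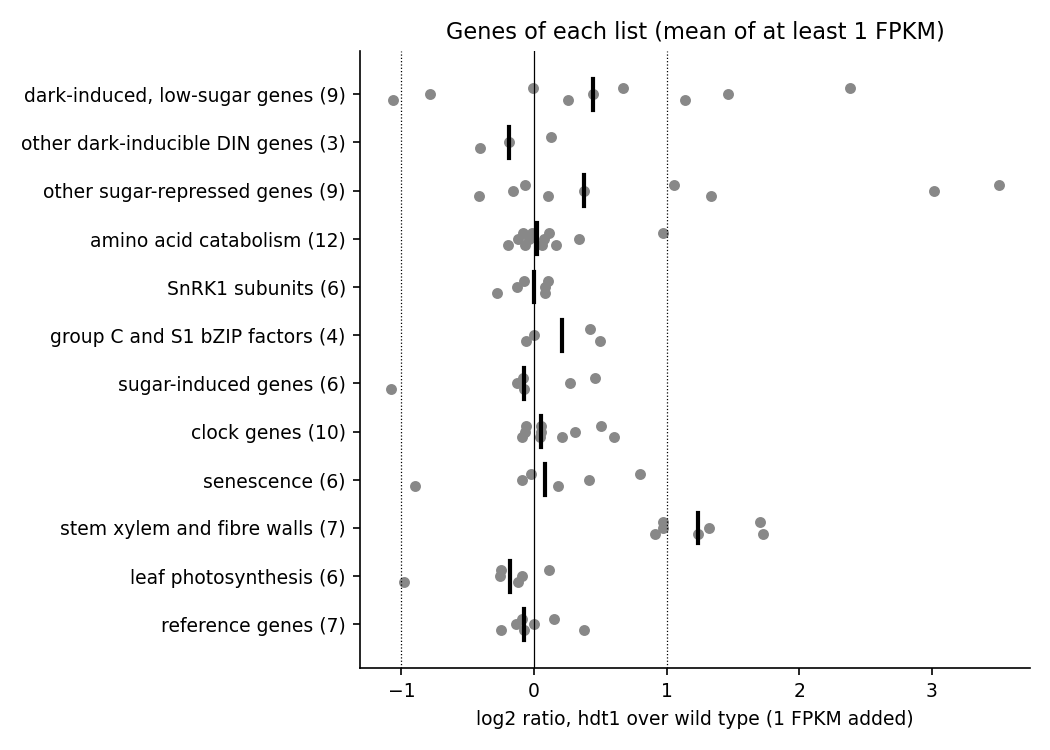
Log2 ratio of hdt1 over wild type with 1 FPKM added for the genes of each list that entered the comparison (number in brackets); each dot is a gene, the bar is the list median and dotted lines mark 2-fold. The member list spans from -1.07 to 2.38, and the medians of amino acid breakdown and SnRK1 subunits lie near 0. Every gene of the xylem and fibre list lies at 0.91 or above.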

How the data were processed

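Libraries from main stem RNA, 1 of hdt1 and 1 of wild type, were compared. The authors deposited FPKM values for both in a table of 33669 features. The tools, per the submitters' processing notes, were HTSeq 0.6.1, TopHat2 2.0.12 and Bowtie2 2.2.3, listed there without roles. No source used here gives the genome build, the annotation or the strand setting. The 67 features with no locus identifier were left out, which left 33602 loci, of which 32835 were found in RefSeq TAIR10.1, used for names, gene order, exon length and promoter sequence.

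Library totals were recovered from the common divisor of the reciprocals of FPKM values. Whole reads were then solved for every feature above 0. The multiple was settled for 89.1% of features as the only one giving a gene length of 0.6 to 1.05 times the annotated exon length (or that length exactly), and the smallest reads were kept for the rest, so their intervals are, if anything, too wide. The reads sum to 98.2% of the hdt1 total and 98.4% of the wild-type total. The recovery was tested on simulated data in which the annotated length was the true one. That test does not cover loci where the length behind the values differs from the annotated length. Fragments are not independent molecules, so intervals cover counting error only.

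A mean of 1 FPKM or more was needed to enter the comparison, with a pseudocount of 1 FPKM and a limit of 2-fold. Members and lists were chosen with earlier results of these data known. All members were named, and of a list with over 4 genes entered, up to 4 from the top by absolute log2 ratio; others are said to be named after their values were seen. Transcripts were aligned with blastn 2.17.0; the rest used Python 3.11.15, scipy 1.17.1 and matplotlib 3.10.9. The design had assumed a promoter table; windows were cut from the RefSeq genome instead.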

Additional observations from a re-analysis of the deposited data

How the results depend on the processing

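AT3G15450 and DIN10 were past 2-fold under each of the 7 other pseudocounts, scalings and trend corrections tried, with log2 ratios from 2.34 to 2.56 and from 1.39 to 1.53. BGAL4 ranged from 0.99 to 1.2, ASN1 from -1.16 to -0.79, DIN2 from 0.27 to 1.01 and MIOX2 from -0.94 to -0.45, and none of these changed sign. The median of the members was 0.27 with 5 FPKM added. The count of members 2-fold higher was 3, and was 1 at a 4-fold limit, 2 with the length trend removed, 4 with 0.1 FPKM added and 4 at a 1.5-fold limit. The count 2-fold lower was 1, and was 0 with 5 FPKM added, 2 at a 1.5-fold limit and 0 at a 4-fold limit. Without BGAL4, an alternative chosen after seeing the data, 2 members were higher and 1 lower. Over all genes 413 were higher and 132 lower, 652 and 246 with 0.1 FPKM added, and 167 and 47 with 5 FPKM added. With the length trend removed, 516 of all genes were higher and 99 lower. No count over all genes was made at the 1.5-fold and 4-fold limits, so the member counts there stand without a background. The median of the senescence list, 0.08, was -0.024 with no filter on low values, which adds SAG29. These shifts follow from the settings' own construction for the limits and pseudocounts. No paired analysis was possible because each genotype has 1 library, and for the same reason no library could be left out. Counting error limits DIN2 and MIOX2 most, which rest on 49 to 176 reads in a library.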

Other observations

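The nearest protein-coding genes on either side of the 10 members were read as a description of their surroundings. Of these 20 neighbours 14 entered the comparison, 1 was at least 2-fold higher in hdt1 and none was 2-fold lower. The one that was higher is AT5G56880, which shares 909 of its 946 exon bases with BGAL4. Its ratio may therefore not be separate from that of BGAL4. Beside AT3G15450, the RING/U-box gene AT3G15440 was too low to enter, at 1.61 FPKM in hdt1 and 0.107 FPKM in wild type from 16 reads and 1 read, a ratio of 15.1 with an interval from 2.34 to 632. Next to bZIP1, which has no level of its own in the table, AT5G49440 was at 141 FPKM in hdt1 and 252 FPKM in wild type, 1.79-fold lower (1.72 to 1.86), and ACLB-2, a subunit of ATP citrate lyase, was at 14.3 FPKM in hdt1 and 8.92 FPKM in wild type, 1.61-fold higher (1.43 to 1.81). These genes were named after their values were seen.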
